A study of Megathyrsus maximus with 33 samples.

Results

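The transcripts c77009_g3 and c64038_g2 of Guinea grass are 2 homologs of FLOWERING LOCUS T (FT). They were chosen because a released annotation gives the Arabidopsis gene At1g65480, which is FT, as the closest match of both. They are 2 of the 39208 transcripts in the table of log2 values. Guinea grass (Megathyrsus maximus, also called Panicum maximum) is a perennial C4 pasture grass, and the RNA came from its youngest fully expanded leaves in an open field in Brazil. The 16 plots of the field formed 4 treatments of 4 plots each. The eCeT plots had [CO2] raised to 600 ppm and a canopy warmed by 2 °C with infrared heaters, the eT plots had the warming alone, the eC plots had the raised [CO2] alone, and the C plots stayed at ambient [CO2] and temperature. Every plot was sampled at time point B, labelled as 50 days of treatment, and at time point A, labelled as 30 days, which gave 32 libraries. The sources date time point B to different months, so the distance between the time points is not settled. Each library came from leaves of 1 plot that were pooled before extraction, and the replicate number of a plot is the ring number in its label.

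FT and its relatives are small phosphatidylethanolamine-binding proteins. In Arabidopsis, FT is transcribed in the phloem companion cells of leaves, and its protein moves to the shoot apex, where it acts with the transcription factor FD to start flowering. Its transcription in the leaf responds to day length through CONSTANS and also to ambient temperature. Grasses carry many genes of this family, among them Hd3a of rice, which acts as a flowering signal, and relatives of TERMINAL FLOWER 1, a repressor of flowering in Arabidopsis. A closest match in Arabidopsis does not tell which member of the grass family a transcript is. The text of the study also names a relative of TERMINAL FLOWER 1 among its flowering transcripts, and whether that name belongs to c77009_g3 or c64038_g2 is not settled here. The files used here give identifiers and values without sequence, so no sequence is shown.

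The libraries held between 6148491 and 15638548 reads. Over the more abundant transcripts, the median correlation of a library with the others of its time point ran from 0.935 to 0.965. Within groups it ran up to 0.974 and was lowest, at 0.930, for the C plot of ring 1 at time point B, a library that moves many of the differences below and is left out beside them. A single transcript took 9.39% to 37.5% of the reads of a library in warmed plots at time point B, and 2.77% to 35.2% in unwarmed plots, and its part in the results was not tested. Markers of leaf tissue were not checked, because the annotation used here has no such list. Names were released only for transcripts that the study had called in eCeT against C, and those of the pair come from its list for time point B and from transcripts it set against metabolites of the same plots. Every value of eCeT against C at time point B therefore describes c77009_g3 and c64038_g2 and is not independent evidence about them. The libraries of time point A had no part in the choice.

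At time point B, c77009_g3 was high in the warmed plots and low in the C plots. Levels are given in CPM, the reads of a transcript per 1000000 reads of a library whose size was scaled by the trimmed mean of M-values (TMM). In rings 1 to 4 it reached 33.7, 17.0, 7.64 and 18.8 CPM in eCeT plots (400, 216, 88 and 148 reads). It stood at 10.3, 19.8, 21.2 and 19.6 CPM in eT plots and at 4.96, 5.19, 6.25 and 19.7 in eC plots, against 0.593, 6.94, 4.18 and 5.65 in C plots. All 8 warmed plots exceeded the highest C plot, and the eC plot of ring 4 lay among the warmed plots. Taken by treatment, all 4 plots lay above all 4 C plots for 2.17% of all transcripts in eCeT and 2.2% in eT plots. The lowest C plot, ring 1, rested on 8 reads of c77009_g3, with an exact 95% Poisson interval of 3.45 to 15.8 reads that covers counting error only.

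c64038_g2 was likewise high in the warmed plots and low in the C plots at time point B, over a wider range. It reached 42.4, 20.6, 9.03 and 20.3 CPM in eCeT plots (504, 262, 104 and 160 reads). It stood at 10.2, 17.5, 18.0 and 22.2 CPM in eT plots and at 4.57, 5.36, 6.51 and 21.4 in eC plots, against 0.222, 2.37, 4.28 and 3.91 in C plots. Each of the 12 plots under a treatment exceeded all 4 C plots for this transcript. Taken by treatment, such separation from C held for 2.17% of all transcripts in eCeT, 2.2% in eT and 1.63% in eC plots. The eCeT and C libraries had a part in the choice of the pair, so the separation is a description. The lowest library of c64038_g2 was again the C plot of ring 1, with 3 reads (exact 95% Poisson interval 0.619 to 8.77). In bulk leaf RNA fewer cells that express a transcript and less of it per cell cannot be told apart.

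**Figure D1:**
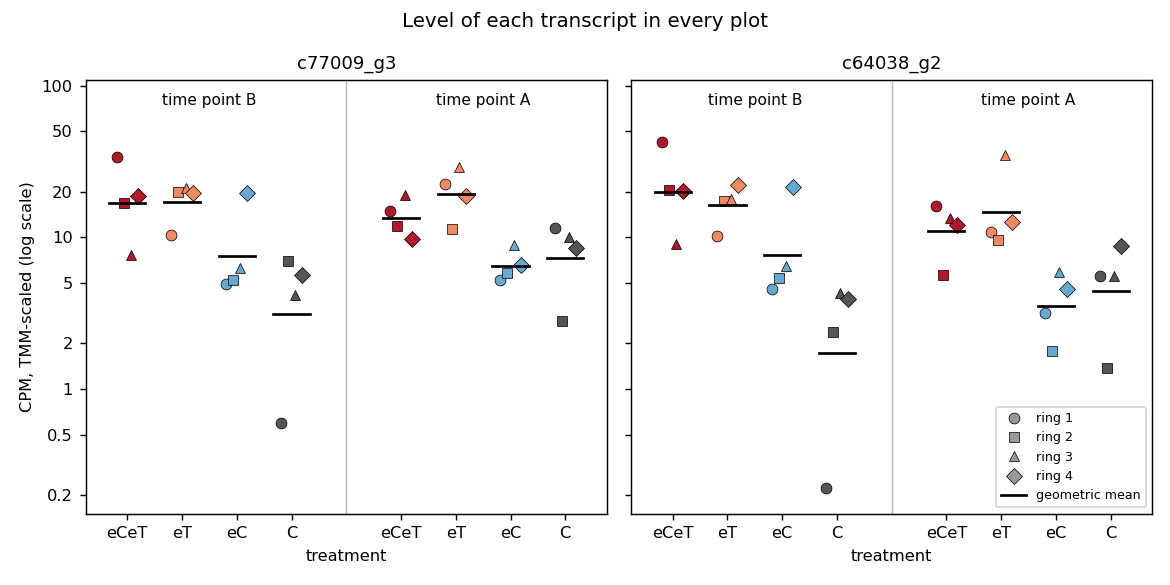
Level of c77009_g3 (left) and c64038_g2 (right) in every plot, in CPM on a log axis, by treatment at time point B and time point A. Each marker is 1 plot with its shape giving the ring, and bars are geometric means of 4 plots; at time point B the warmed plots lie between 7.64 and 42.4 and the C plots between 0.222 and 6.94.

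At time point A both transcripts were already higher in most warmed plots. c77009_g3 had 14.8, 11.8, 19.0 and 9.77 CPM in eCeT plots and 22.4, 11.4, 29.3 and 18.9 in eT plots, against 5.22, 5.84, 8.85 and 6.55 in eC plots and 11.6, 2.82, 10.1 and 8.45 in C plots. c64038_g2 had 16.1, 5.67, 13.4 and 12.1 CPM in eCeT plots and 10.8, 9.66, 34.9 and 12.7 in eT plots, against 3.19, 1.79, 5.93 and 4.57 in eC plots and 5.60, 1.38, 5.60 and 8.80 in C plots. The eT plot of ring 3 was the highest plot of time point A in CPM for both transcripts, and the C plot of ring 2 was the lowest. That eT library was the smallest of all, at 6148491 reads, with 130 reads of c77009_g3 and 155 of c64038_g2. Its TMM-scaled size was 0.723 of its reads, which raises its CPM values.

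The order of the treatments by mean log2 level differed between the time points, with C lowest at B and eC lowest at A. At time point B, c77009_g3 averaged 4.10 ± 0.49 in eT plots, 4.09 ± 0.88 in eCeT plots and 2.92 ± 0.94 in eC plots, against 1.68 ± 1.59 in C plots (log2 CPM, SD, n = 4 each). c64038_g2 averaged 4.33 ± 0.91 in eCeT plots, 4.04 ± 0.48 in eT plots and 2.94 ± 1.01 in eC plots, against 0.86 ± 1.91 in C plots. The order at time point A was eT, eCeT, C and eC for both transcripts, with means from 4.28 ± 0.57 in eT plots to 2.71 ± 0.33 in eC plots for c77009_g3 and from 3.88 ± 0.85 in eT plots to 1.84 ± 0.74 in eC plots for c64038_g2. Of the 12 pairs of neighbours in these orders, 11 overlapped plot by plot, with exact two-sided permutation p-values from 0.0571 to 1. The exception was c64038_g2 in eC against C at time point B, where the 4 plots of each were apart (difference 2.08, exact permutation p = 0.0286, the smallest that 4 plots against 4 can give). With 12 pairs compared, that value is not adjusted. All 4 eC plots lay above all 4 C plots at time point B for 1.63% of all transcripts. The C libraries there had a part in the choice of the pair, which favours low C values. This separation and its p-value are therefore a description.

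The comparison of the combined treatment with ambient plots asks how both factors together change the leaf transcriptome. At time point B, c64038_g2 was 11.1-fold higher in eCeT than in C plots (log2 difference 3.47, SE 0.65, adjusted p = 0.0215 by limma), and 1 of the 39208 transcripts had a larger positive difference. c77009_g3 was 5.29-fold higher (2.40, SE 0.54, adjusted p = 0.0687), with 26 transcripts above it. Both passed the threshold of the study, an adjusted p under 0.1, as did 0.309% of all transcripts, but this is the comparison from which names were given, so nothing is read from that count. Without the C plot of ring 1, with its 8 and 3 reads, the differences were 1.62 for c77009_g3 (adjusted p = 0.110) and 2.53 for c64038_g2 (adjusted p = 0.0386). The call of c77009_g3 also ended without the C plot of ring 3 (adjusted p = 0.139) or the eCeT plots of ring 1 (0.270), ring 2 (0.169) or ring 4 (0.201), and that of c64038_g2 without the eCeT plot of ring 1 (0.127).

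The plots under a single factor were set against the same C plots, so these differences share the low C plot of ring 1. Those C libraries also had a part in the choice of the pair, which favours C plots low in both transcripts, so separation from them is not independent evidence. In eT plots at time point B, c64038_g2 was 3.18 higher on the log2 scale (SE 0.65) and c77009_g3 was 2.41 higher (SE 0.54). These sizes lay close to those in eCeT plots, yet neither passed the test across all transcripts (adjusted p = 0.136 for c64038_g2 and 0.196 for c77009_g3), which called 0.0179% of them. All 4 eT plots exceeded all 4 C plots for both, as was so for 2.2% of all transcripts, and the exact permutation test for 4 plots against 4 gave p = 0.0286 for each. The eT difference of c64038_g2 did pass under 6 alternatives, among them library sizes without TMM (3.21, adjusted p = 0.0255) and array weights (3.02, adjusted p = 0.0450), and that of c77009_g3 passed without TMM (2.44, adjusted p = 0.0781) and without the C plot of ring 2 (2.79, adjusted p = 0.0723). In eC plots the differences from C were 2.08 for c64038_g2 (SE 0.65, adjusted p = 0.677) and 1.23 for c77009_g3 (SE 0.54, adjusted p = 0.734). The 4 eC plots lay apart from the C plots for c64038_g2, as for 1.63% of all transcripts, and overlapped them for c77009_g3. Without the C plot of ring 1 the eC difference was 1.15 for c64038_g2 and 0.45 for c77009_g3, and the eT difference was 2.24 and 1.63.

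At time point A neither transcript differed between a treatment and C by the test across all transcripts. In eT plots c64038_g2 was 1.72 higher (SE 0.65, adjusted p = 0.339) and c77009_g3 was 1.41 higher (SE 0.54, adjusted p = 0.344), and only c64038_g2 had all 4 eT plots higher than all 4 C plots, as had 2.44% of all transcripts, while 0.0485% passed the test. In eCeT plots the differences were 1.31 for c64038_g2 (SE 0.65, adjusted p = 0.406) and 0.89 for c77009_g3 (SE 0.54, adjusted p = 0.530), in a comparison that called 1.4% of all transcripts. In eC plots they were -0.32 for c64038_g2 (SE 0.65) and -0.16 for c77009_g3 (SE 0.54), with adjusted p-values of 0.933 and 0.963. When the C plot of ring 2 was left out, the eCeT difference at time point A was 0.76 for c64038_g2 and 0.43 for c77009_g3.

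The layout of 2 temperatures by 2 levels of [CO2] allows all 8 warmed plots of a time point to be set against all 8 unwarmed plots. Both transcripts were higher under warming at both time points. At time point A, where the libraries had no part in the choice of names, c64038_g2 was 3.19-fold higher in warmed plots (log2 difference 1.67, SE 0.46, adjusted p = 0.0545) and c77009_g3 was 2.34-fold higher (1.23, SE 0.38, adjusted p = 0.0871). The same test called 1477 of the 39208 transcripts (3.77%). Of those called, 566 were higher in warmed plots, which is 1.44% of all transcripts. A larger positive difference than that of c64038_g2 was seen for 161 transcripts, and 551 had a larger one than c77009_g3. Warmed plots ran from 5.67 through a median of 12.4 to 34.9 CPM of c64038_g2, against 1.38, 5.09 and 8.80 in unwarmed plots. For c77009_g3 the lowest, median and highest values were 9.77, 16.9 and 29.3 in warmed plots, against 2.82, 7.50 and 11.6 in unwarmed plots. The groups overlapped in part: 7 of 8 warmed plots exceeded every unwarmed plot for c64038_g2 and 6 of 8 did for c77009_g3. The exact two-sided permutation test of 8 plots against 8 gave p = 0.000466 for c64038_g2 and p = 0.000932 for c77009_g3.

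At time point B the warming difference was 4.86-fold for c64038_g2 (2.28, SE 0.46, adjusted p = 0.0778) and 3.46-fold for c77009_g3 (1.79, SE 0.38, adjusted p = 0.0970). Only 0.0459% of all transcripts passed this test, all of them higher in warmed plots, and 3 transcripts had a larger difference than c64038_g2 and 23 a larger one than c77009_g3. The eCeT and C plots are 8 of these 16 plots, so this result shares libraries with the choice of names. The lowest, median and highest values of c64038_g2 were 9.03, 19.2 and 42.4 CPM in warmed plots, against 0.222, 4.43 and 21.4 in unwarmed plots. Those of c77009_g3 were 7.64, 19.2 and 33.7 in warmed plots, against 0.593, 5.42 and 19.7 in unwarmed plots. For both transcripts 7 of 8 unwarmed plots lay below every warmed plot, and the exception was the eC plot of ring 4. The exact permutation test gave p = 0.00155 for c64038_g2 and p = 0.00202 for c77009_g3. Leaving out the C plot of ring 1 gave differences of 1.81 (adjusted p = 0.0846) and 1.40 (adjusted p = 0.0951).

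These calls stood close to the threshold. That of c64038_g2 at time point B held without each of the 4 C plots, the eC plot of ring 4, the eCeT plot of ring 3 or the eT plot of ring 1 and ended without each of the other 9 plots (adjusted p up to 0.238), and that of c77009_g3 held only without the C plots of rings 1 and 2, the eC plot of ring 4, the eCeT plot of ring 3 or the eT plot of ring 1 (adjusted p up to 0.303). Neither call at time point B passed with voom weights (adjusted p = 0.115 for c64038_g2 and 0.118 for c77009_g3) or on FPKM values (adjusted p from 0.182 to 0.531). With the plot as a random effect, which takes in that each plot was sampled at both time points, the adjusted p of c77009_g3 at time point B was 0.108. At time point A the call of c64038_g2 ended without the C plot of ring 2 (adjusted p = 0.135), the eC plot of ring 2 (0.113), the eCeT plot of ring 1 (0.101) or the eT plot of ring 3 (0.132), while that of c77009_g3 held only without the C plots of rings 1 and 3, the eC plot of ring 3, the eCeT plot of ring 4 or the eT plot of ring 2. The exact permutation p of warming stayed at or below 0.00466 for both transcripts and both time points whichever plot was left out. At time point B those plots include eCeT and C libraries that had a part in the choice of names. The p-values there are therefore not independent evidence.

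**Figure D2:**
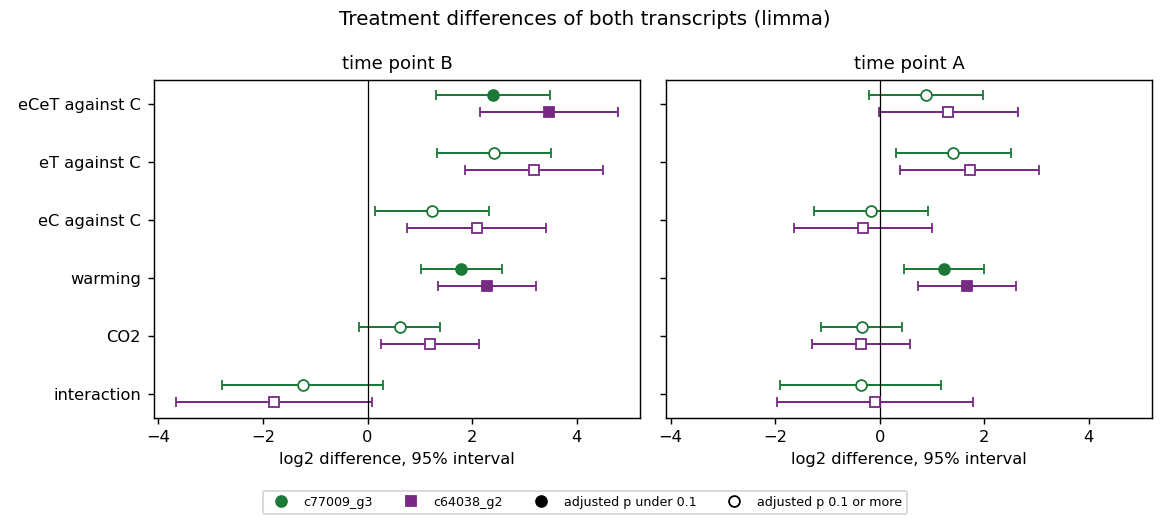
Differences of c77009_g3 (circles) and c64038_g2 (squares) on the log2 scale with 95% intervals from limma, for 3 treatments against C, for warmed minus unwarmed plots, for elevated minus ambient [CO2], and for their interaction, at time point B (left) and time point A (right). Filled markers passed an adjusted p under 0.1: eCeT against C at time point B (3.47 and 2.40) and warming at time point B (2.28 and 1.79) and at time point A (1.67 and 1.23), with c64038_g2 first in each pair.

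Elevated [CO2] gave no difference of either transcript that passed the test, which called 0.0051% of all transcripts at time point B. The 8 plots at elevated [CO2] were 1.19 higher at time point B than the 8 at ambient [CO2] for c64038_g2 (95% interval 0.25 to 2.12, adjusted p = 0.821) and 0.61 higher for c77009_g3 (-0.16 to 1.38, adjusted p = 0.825). The differences at time point A were -0.36 for c64038_g2 (-1.30 to 0.57) and -0.34 for c77009_g3 (-1.12 to 0.43). The intervals leave room for changes of either sign for c77009_g3 at both time points and for c64038_g2 at time point A. At time point B the comparison shares its eCeT and C libraries with the choice of the pair, which favours a positive difference. The interval of c64038_g2 there is adjusted neither for that choice nor for the number of transcripts tested. When the C plot of ring 1 was left out, the [CO2] difference at time point B was 0.72 for c64038_g2 and 0.22 for c77009_g3.

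The interaction asks whether warming changed the level by another amount at elevated than at ambient [CO2]. It was -1.79 at time point B for c64038_g2 (95% interval -3.67 to 0.08, adjusted p = 0.939) and -1.24 for c77009_g3 (-2.79 to 0.30, adjusted p = 0.941). The point estimates mean that the warming difference was smaller at elevated [CO2], but neither was resolved from 0. They shrank to -0.86 and -0.46 without the C plot of ring 1. Time point A gave an interaction of -0.09 for c64038_g2 (-1.97 to 1.78) and -0.37 for c77009_g3 (-1.91 to 1.18).

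Between the time points neither transcript had a change over treatments that passed the test, which called 43.2% of all transcripts. Over the 16 plots the mean change at time point B relative to A was 0.20 for c64038_g2 (SE 0.33, adjusted p = 0.656), with 10 of 16 plots higher at B. For c77009_g3 it was -0.21 (SE 0.27, adjusted p = 0.571), with 7 of 16 plots higher at B. The exact sign-flip permutation test over the 16 plots gave p = 0.643 for c64038_g2 and p = 0.609 for c77009_g3. The 95% intervals were -0.46 to 0.86 for c64038_g2 and -0.75 to 0.34 for c77009_g3. Without the C plot of ring 1 the mean change over the other 15 plots was 0.51 for c64038_g2 (exact permutation p = 0.0709) and 0.06 for c77009_g3 (exact permutation p = 0.814).

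Within treatments the changes were uneven. The pair was named from eCeT against C at time point B, which favours a rise in eCeT plots and a fall in C plots. The changes in those plots, with their adjusted p-values, are therefore a description. In eCeT plots 3 of 4 plots were higher at B for both transcripts (mean change 0.86 for c64038_g2 and 0.33 for c77009_g3), and in eT plots 2 of 4 were (0.16 and -0.18). In eC plots all 4 were higher at B for c64038_g2 (1.1) but only 1 of 4, the plot of ring 4, for c77009_g3 (0.21). In C plots 1 of 4, the plot of ring 2, was higher at B for both (-1.30 for c64038_g2 and -1.19 for c77009_g3). The C plot of ring 1 moved most of all 16 plots, by -4.44 for c64038_g2 and -4.20 for c77009_g3. Without that library at time point B the C change was -0.37 for c64038_g2 (adjusted p = 0.720) and -0.40 for c77009_g3 (adjusted p = 0.613). None of the 8 changes within a treatment passed the test, where 4.47% of all transcripts were called in eCeT, 13.1% in eT, 12.7% in eC and 12.9% in C plots, although with the C plot of ring 2 left out at time point A the C change was -1.86 for c64038_g2 (adjusted p = 0.0952) and -1.64 for c77009_g3 (adjusted p = 0.0753), and with it left out at time point B that of c77009_g3 was -1.56 (adjusted p = 0.0765).

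The differences from C or from unwarmed plots were also compared between time points. The pair was named from eCeT against C at B, and that choice favours a larger difference at B than at A, so the eCeT values below are a description. The eCeT difference from C was larger at B than at A by 2.16 for c64038_g2 (95% interval 0.28 to 4.03) and by 1.52 for c77009_g3 (-0.03 to 3.06), and neither passed across all transcripts (adjusted p = 0.777 and 0.840). The warming difference, which shares those libraries, was larger at B by 0.61 for c64038_g2 (-0.72 to 1.93, adjusted p = 0.935) and by 0.56 for c77009_g3 (-0.53 to 1.66, adjusted p = 0.927). Without the C plot of ring 1 at time point B these 4 values were 1.22, 0.74, 0.14 and 0.17, in the same order.

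The levels of c77009_g3 and c64038_g2 moved together from plot to plot. At time point B Pearson's r between them over the 16 plots was 0.970 (permutation p = 1e-05, the smallest that 100000 resamples can give, Benjamini-Hochberg adjusted 4e-05) and Spearman's rho was 0.862 (permutation p = 6e-05, adjusted 0.00024). The choice of names drew on libraries of time point B, which favours a shared difference between eCeT and C plots. These values at B are therefore a description and not independent evidence. The same r at time point A was 0.898 (permutation p = 2e-05, adjusted 4e-05) and rho was 0.826 (permutation p = 0.00024, adjusted 0.00048). Without the 2 plots farthest from the median r was 0.915 at B and 0.795 at A. All these values run over plots of all 4 treatments, so they and their p-values take in treatment differences that the transcripts share. As a description, deviations from the treatment means gave r = 0.952 at B and 0.768 at A, and deviations from the ring means 0.972 and 0.891. How reads that match both transcripts were assigned is not given in the sources used here, and the part of such reads in this correlation was not tested. Between the level of a plot at time point B and its level at A, r was 0.486 for c64038_g2 (permutation p = 0.0603, adjusted 0.0803) and 0.292 for c77009_g3 (permutation p = 0.272, adjusted 0.272). The 2 relations with time point A were added after the data were seen, and 4 relations were adjusted together. Spearman's rho between the time points was 0.582 for c64038_g2 (permutation p = 0.0209, adjusted 0.0279) and 0.459 for c77009_g3 (permutation p = 0.0756, adjusted 0.0756), and without the 2 farthest plots r was 0.408 and 0.227. These values between time points run over plots of all 4 treatments and so take in treatment differences shared by both time points. The libraries of time point B also had a part in the choice of names. Deviations from the treatment means gave r = 0.12 for c64038_g2 and -0.42 for c77009_g3.

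**Figure D3:**
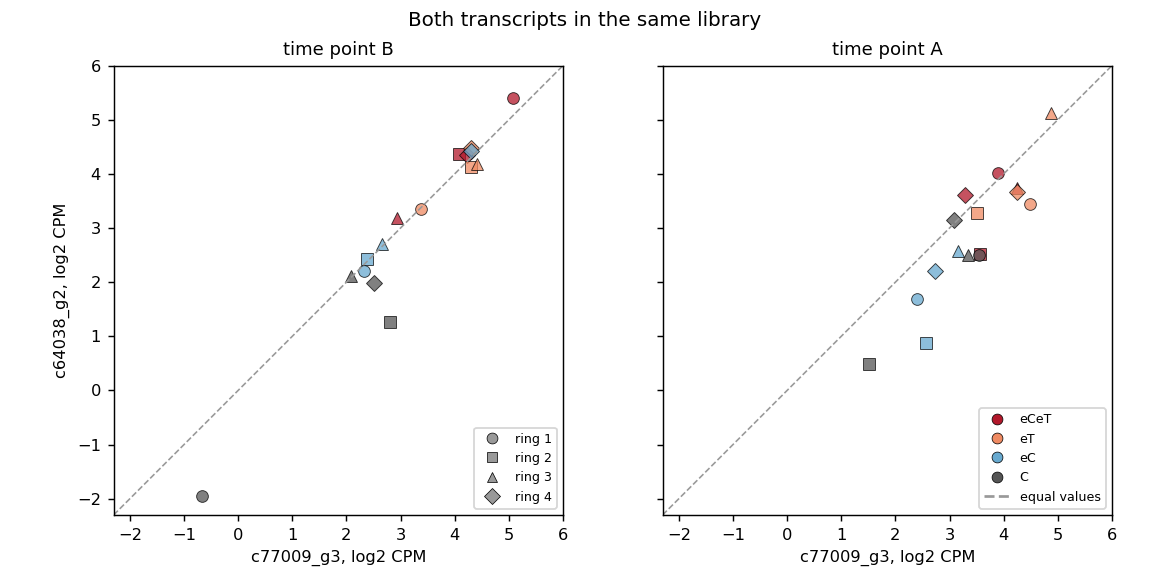
Level of c64038_g2 (vertical) against c77009_g3 (horizontal) in the same library, both in log2 CPM, at time point B (left) and time point A (right), coloured by treatment with marker shape giving the ring. Points follow the dashed line of equal values at B (r = 0.970), 3 of the 4 C points lying under it, and scatter more, mostly below the line, at A (r = 0.898).

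The balance of the 2 transcripts within a library needs no scaling between libraries. The log2 ratio of reads of c64038_g2 to c77009_g3 averaged -0.15 ± 0.53 at time point B and -0.56 ± 0.56 at time point A (SD, n = 16 plots each), and it was higher at B in 11 of 16 plots. The difference of 0.41 gave an exact sign-flip permutation p of 0.0313, or 0.0807 after adjustment over the 3 tests of this ratio, which were added after the data were seen. The ratio was 0.09 ± 0.21 in warmed and -0.40 ± 0.66 in unwarmed plots at B, a difference of 0.49 (exact permutation p = 0.0538, adjusted 0.0807, n = 8 each), and the difference at A was 0.45 (exact permutation p = 0.113). Without any one of 6 plots (eCeT rings 2 and 3, eT rings 1 and 4, eC ring 2 and C ring 3) the unadjusted p of the change over time rose past 0.05, to at most 0.0622.

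Per length, c64038_g2 was the more abundant of the 2. In fragments per kilobase of transcript and per library size (FPKM), c64038_g2 averaged 29.9 (range 0.432 to 101) and c77009_g3 averaged 10.2 (range 0.511 to 26.5) over the 29 libraries whose FPKM column could be assigned. By mean FPKM, 9.0% of 45073 transcripts were above c64038_g2 and 22.6% were above c77009_g3. The log2 ratio of their FPKM values had a median of 1.44 and was above 0 in 26 of 29 libraries. The 3 libraries below 0 were both C plots with a value at time point B and the eC plot of ring 2 at time point A. The FPKM ratio exceeded the read ratio by 0.97 to 1.93 on the log2 scale, depending on the library, so the FPKM values are not these reads divided by one fixed length.

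Among 18309 other transcripts with a mean log2 level of at least 1, each of the pair was the one most like the other, with r = 0.936 over the 32 libraries. These correlations are descriptions over libraries that share treatments, plots and scaling. After c64038_g2, the transcripts most like c77009_g3 were c95742_g1 (r = 0.761), c80365_g1 (0.733), c79549_g1 (0.702) and c83138_g1 (0.700). After c77009_g3, those most like c64038_g2 were c83138_g1 (0.732), c95319_g2 (0.708), c83456_g1 (0.697) and c90755_g2 (0.696). All 7 had a higher mean log2 level in warmed than in unwarmed libraries, by less than either FT homolog: c79549_g1, with the widest gap of the 7, averaged 2.05 in warmed and 1.25 in unwarmed libraries. They were picked for likeness to transcripts that were higher in warmed libraries, so the choice favours this direction.

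The released annotation gives a flowering term to 2 further transcripts, and both come from a list of transcripts called at time point A in eCeT against C. c83306_g1 is matched to CONSTANS-like 2, a relative of the day-length regulator CONSTANS. Its level at time point A was 0.382, 0.423, 1.32 and 0.296 CPM in eCeT plots (4 to 13 reads), against 1.77, 2.45, 3.32 and 2.35 in C plots (24 to 39 reads). Its difference of -2.17 (SE 0.46, adjusted p = 0.0306) belongs to the comparison that chose it, which called 1.4% of all transcripts here. It did not pass without the C plot of ring 2 (adjusted p = 0.131) or on FPKM values (adjusted p = 0.306 and 0.287 with pseudocounts of 1 and 0.1). The comparisons of warming at time point A and of B with A, over treatments and in eCeT plots, use the same eCeT libraries. The choice therefore favours differences there too, and their values are a description. Under warming it was 1.32 lower at time point A (SE 0.32, adjusted p = 0.0300, and 0.273 and 0.237 on FPKM values), where 3.77% of all transcripts were called. Its warming difference at time point B was -0.48 (SE 0.32, adjusted p = 0.820). It was higher at B than at A over treatments, by 1.32 (SE 0.23, adjusted p = 4.66e-05), and within eCeT plots by 2.67 (SE 0.46, adjusted p = 0.00368). These 2 comparisons called 43.2% and 4.47% of all transcripts. Its correlation with c77009_g3 over the 32 libraries was -0.385 and with c64038_g2 -0.327.

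c86748_g3 is matched to a polygalacturonase-inhibiting protein and carries the term for floral organ number. It was scarcely measured, with 14, 8, 6 and 8 reads in eCeT plots at time point A and at most 9 reads in any other library. Its level in eCeT plots at that time point was not separated from C plots across all transcripts (2.41, SE 0.80, adjusted p = 0.168), and the C plot of ring 4 held 9 reads. It did pass with voom weights (2.5, adjusted p = 0.0634), with array weights (2.64, adjusted p = 0.0741) and on FPKM values with a pseudocount of 1 (0.67, adjusted p = 0.0431). It was lower at B than at A over treatments (-1.75, SE 0.40, adjusted p = 0.00107), in a comparison that called 43.2% of all transcripts. The eCeT libraries of time point A that had a part in its choice are included, which favours a fall, so this value is a description. No library at time point B held more than 2 reads.

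**Figure D4:**
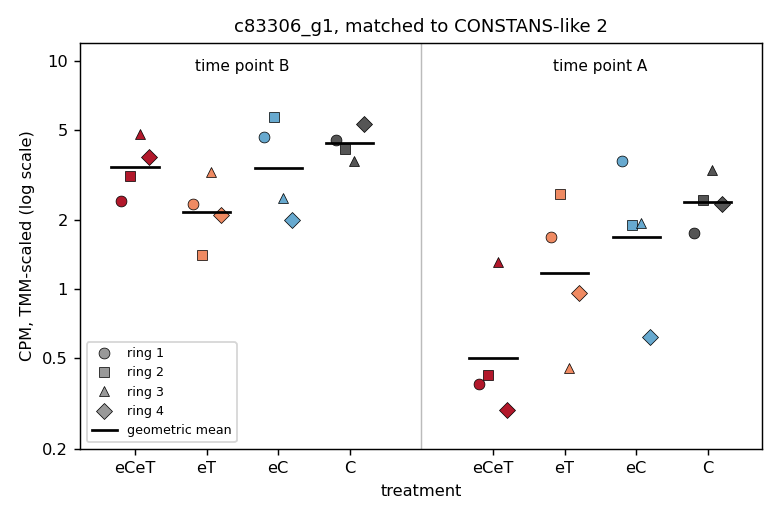
Level of c83306_g1, the transcript matched to CONSTANS-like 2, in every plot, in CPM on a log axis, by treatment at time point B and time point A, with marker shape giving the ring and bars for geometric means of 4 plots. At time point A the 4 eCeT plots run from 0.296 to 1.32 and the 4 C plots from 1.77 to 3.32.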

How the data were processed

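The authors sequenced leaf RNA of 16 plots at both time points and assembled transcripts with Trinity. The study reports that a filter of at least 10 reads over the 4 plots of a treatment left 45073 transcripts. After normalization it removed extreme outliers, which left 39208 for its tests. The authors deposited log2 CPM values on TMM-scaled library sizes, with 0.5 added to each count, for 39208 transcripts. They also deposited FPKM values. The aligner and the counter are not given in the sources used here. The submitters' notes name CASAVA and bcl2fastq 1.8.4.

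The log2 values returned whole reads, within 0.02 of a read, for 100% of values up to 1000 reads. One limma 3.58.1 model (R 4.3.3) with 8 groups and a variance trend was fitted to 39208 transcripts, with Benjamini-Hochberg adjustment over all of them and the adjusted p under 0.1 that the study used as a threshold. Exact permutation tests (scipy 1.17.1) served single values. The FPKM table was an alternative, without the 3 C columns whose header lines contradict each other. The ring is the replicate number. Libraries of the same plot are paired by design, though their deviations from the group means correlated weakly (median 0.048 over 16 plots, 6 of them over 0.1). p-values measure the spread between plots.

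The members, lists and tests were chosen with earlier results of these data known. The transcripts named beyond the pair are the 2 others with a flowering term in the annotation and the 4 most correlated with each member. Alternatives covered scaling, filters, moderation, voom, FPKM, ring and plot blocks, and single plots left out.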

Additional observations from a re-analysis of the deposited data

Results flagged for a closer look

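In 16 groups of 4 plots tested for a plot far from the rest, of which chance flags about 1 in 20, c77009_g3 gave both cases, and both were at time point B. In eT plots, ring 1 was low, at a log2 level of 3.37 against at least 4.30 in the other rings, a gap of 0.892 of the range of the group. In eC plots, ring 4 was high, at 4.30 against at most 2.65 in the other rings, a gap of 0.832 of the range. c64038_g2 had its lowest eT plot and its highest eC plot in the same rings, without passing the limit. Without the eC plot of ring 4 the eC difference from C at time point B was 0.77 for c77009_g3 and 1.59 for c64038_g2, and the warming difference was 2.02 (limma adjusted p = 0.0216) and 2.53 (adjusted p = 0.0216).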

How the results depend on the processing

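Of 1234 values of the FT homologs under an alternative, 1119 kept their direction and their side of the threshold, 75 kept the direction but no longer passed, 17 came to pass and 23 changed sign. All values here are log2 differences with limma adjusted p-values unless named otherwise, and where no construction shows it, the cause was not tested. The eCeT difference of c77009_g3 at time point B (2.40) did not pass at an adjusted p under 0.05, without the variance trend, with robust moderation or with only the groups compared, nor on FPKM values (2.04 and 2.67 with pseudocounts of 1 and 0.1). That of c64038_g2 (3.47) failed only with the groups compared alone (adjusted p = 0.408) and without the eCeT plot of ring 1. The eT difference at time point B passed for c64038_g2 with quantile normalization (3.31), median centring (3.26), no TMM (3.21), FPKM and a pseudocount of 1 (3.84), array weights (3.02) and the ring as a replicate block (3.18, adjusted p = 0.0524), and for c77009_g3 without TMM (2.44).

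Warming at time point A no longer passed at an adjusted p under 0.05 or without the variance trend for c64038_g2 (1.67) and c77009_g3 (1.23), and for c77009_g3 also with robust moderation, quantile normalization (1.19), no TMM (1.18), FPKM (0.99 and 1.11) and array weights (1.16). Warming at time point B no longer passed at an adjusted p under 0.05, without the trend, with robust moderation or with only that time point for c64038_g2 (2.28) and c77009_g3 (1.79), with voom (2.38 and 1.85) and on FPKM values (2.47 and 2.89 for c64038_g2, 1.44 and 1.81 for c77009_g3). For c77009_g3 it also failed with a filter at 1 CPM (1.79), without TMM (1.60) and with the plot as a replicate block (1.79, adjusted p = 0.108). The plot block changed no other call of the pair, and the ring block changed only that of c64038_g2 in eT plots at time point B. Deviations of same-ring libraries of different treatments correlated over 0.1 in 14 of 48 pairs (median 0.0477), against 7 of 144 pairs from different rings (median -0.0173). The ring was not treated as a pairing, by a rule that every pair be over 0.1. That rule is strict, as libraries of the same plot, paired by design, met it in only 6 of 16 pairs. The main model and the permutation tests of warming therefore leave the ring out. With the ring as a block, 1896 transcripts were called, against 1477 without it, for warming at A and 43, against 18, at B. The exact permutation p of warming was at most 0.0173 under every alternative run, though at time point B it shares libraries with the choice of names.

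The change from A to B passed for c77009_g3 in C plots with median centring (-1.35) and without TMM (-1.42), and for c64038_g2 in eC plots without TMM (1.53). These values changed sign: the interaction at time point A without TMM for c77009_g3 (0.25) and c64038_g2 (0.52) and for c64038_g2 on FPKM values (0.030 and 0.024), the change of c77009_g3 in eC plots with array weights (-0.054) and in eCeT plots on FPKM values (-0.0098), the overall change of c64038_g2 on FPKM values (-0.038 and -0.18), and r of c77009_g3 between time points within treatments (-0.42, against 0.292 over all plots). That r for c64038_g2 had a permutation p under 0.05 with 5 reads added (r = 0.534) and within rings (0.589). The change of the ratio between time points on FPKM values was 0.43 (exact permutation p = 0.0992).

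With single plots or rings left out, the eCeT difference at time point B ran from 2.53 to 3.89 for c64038_g2 and from 1.62 to 2.78 for c77009_g3, and the eT difference of c77009_g3 from 1.63 to 2.79. Warming ran from 1.81 to 2.53 (c64038_g2) and 1.40 to 2.02 (c77009_g3) at time point B, and from 1.40 to 1.84 and 1.00 to 1.36 at time point A. The eC difference at time point A ran from -0.87 to 0.013 for c64038_g2 and from -0.61 to 0.063 for c77009_g3, and the interaction there from -0.42 to 0.46 and from -0.62 to 0.086. The change from A to B ran from -1.86 to -0.37 and from -1.64 to -0.40 in C plots, from -0.045 to 0.57 and from -0.44 to 0.057 in eT plots, from 0.61 to 1.35 and from -0.26 to 0.40 in eC plots, from 0.49 to 1.24 and from 0.0015 to 0.71 in eCeT plots, and from 0.068 to 0.51 and from -0.33 to 0.058 over the plots left, c64038_g2 before c77009_g3 in each. The ratio differences ran from 0.32 to 0.48 over time, 0.33 to 0.56 for warming at time point B and 0.32 to 0.57 at time point A, and r of c64038_g2 between time points from 0.48 to 0.60. Fits of only the groups compared give nothing for contrasts over all 8 groups. Counting error is widest for the C plot of ring 1 at time point B, with 8 and 3 reads in a library of ordinary depth (12072802 reads).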
